A study of Mus musculus with 2 samples.

Results

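The heat shock chaperones described here are 10 of the 25909 genes of a single-cell count matrix of mouse liver myeloid cells. They were taken by name: the stress-inducible HSP70 genes Hspa1a and Hspa1b, their J protein partner Dnajb1, the HSP110 gene Hsph1, the HSP90 genes Hsp90aa1 and Hsp90ab1, the cognate HSP70 gene Hspa8, the J protein gene Dnaja1, and the mitochondrial chaperonin genes Hspd1 and Hspe1. The list was selected on expression differences between these 4 mice that were already known, so the levels of its members and their ratios between mice are given as a description.

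The study sorted CD45.2+ CD11b+ liver cells that lacked the lineage markers CD90.2, B220, NK1.1 and SiglecF. The cells came from 4 mice, 1 for each combination of genotype and diet. The paper describes CDA-HFD-fed mice as male and 6 to 12 weeks old when feeding began. Every mouse carried the floxed allele Egr2fl/fl, and in the Lyz2Cre/+.Egr2fl/fl mice the Lyz2 promoter drove Cre, so that deletion is limited to cells in which Lyz2 has been expressed. The mice were fed a normal diet (ND) or, for 7 weeks, CDA-HFD. The latter is a high-fat diet that lacks choline, has defined amino acids and serves as a model of steatohepatitis. Each mouse was marked with its own hashtag, a streptavidin that carries a DNA barcode (A951 for ND-fed Egr2fl/fl, A952 for ND-fed Lyz2Cre/+.Egr2fl/fl, A953 for CDA-HFD-fed Egr2fl/fl and A954 for CDA-HFD-fed Lyz2Cre/+.Egr2fl/fl), and all cells were pooled into 1 capture on the BD Rhapsody system. Each group was 1 mouse, so that nothing was replicated, no test was made, and genotype, diet, mouse, hashtag and sort cannot be told apart.

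Chaperones hold unfolded proteins and help them to fold. Under proteotoxic stress the transcription factor HSF1 is released from chaperones, binds heat shock elements, which are inverted repeats of the bases GAA, and induces the HSP70, J protein, HSP110 and HSP90 genes within minutes. Cells taken from tissue by enzyme digestion and sorting are known for inducing the same genes, together with immediate early genes such as Fos and Jun.

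Hspa1a and Hspa1b are neighbours with a single exon each on the minus strand of chromosome 17, at chr17:34969190-34972156 and chr17:34956436-34959238 (GRCm38, GENCODE annotation), 9951 bases apart. The 250 bases before their start sites (RefSeq, GRCm38) are shown because both genes had nearly the same ratios between the mice. They were identical at 247 of 250 positions (98.8%), with the substitutions C44T, T47C and T249G from Hspa1a to Hspa1b, counted from 1 at the 5′ end. The capitals mark the match to GAANNTTC, the letters searched for as an inverted pair of GAA units together with TTCNNGAA. Each of these motifs reads the same on both strands.
Hspa1a, chr17:34972157-34972406, minus strand: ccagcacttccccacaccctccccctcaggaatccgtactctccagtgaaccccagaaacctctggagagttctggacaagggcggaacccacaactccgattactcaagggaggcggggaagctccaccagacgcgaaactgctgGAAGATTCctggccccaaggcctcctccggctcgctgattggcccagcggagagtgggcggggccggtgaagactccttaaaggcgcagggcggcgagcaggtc
Hspa1b, chr17:34959239-34959488, minus strand: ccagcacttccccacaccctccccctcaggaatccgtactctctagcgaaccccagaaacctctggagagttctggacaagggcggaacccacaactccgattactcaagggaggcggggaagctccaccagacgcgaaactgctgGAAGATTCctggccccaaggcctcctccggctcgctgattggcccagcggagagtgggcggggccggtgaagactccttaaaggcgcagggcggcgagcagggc

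Hspd1 and Hspe1, which encode the mitochondrial HSP60 and HSP10, lie head to head on chromosome 1 and overlap at their starts. The same 30 bases between chr1:55088053 and chr1:55088082 are shown on each gene's strand because they hold the overlapping 3-unit matches GAANNTTCNNGAA and TTCNNGAANNTTC, in capitals. Hsph1 and Dnaja1 are shown with their 2-unit matches for comparison.
Hspe1, chr1:55088053-55088082, plus strand: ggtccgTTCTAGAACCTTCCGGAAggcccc
Hspd1, chr1:55088053-55088082, minus strand: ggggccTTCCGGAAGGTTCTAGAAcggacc
Hsph1, chr5:149636351-149636380, minus strand: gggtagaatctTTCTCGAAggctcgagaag
Dnaja1, chr4:40722333-40722362, plus strand: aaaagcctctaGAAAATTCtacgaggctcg

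The promoter table held windows of 7 of the 10 members, 12 windows in all, and 7 of the 12 windows had a 2-unit match, against 12.8% of all 32817 promoters of the same length. These windows are not separate, since Hspa1a and Hspa1b are nearly identical, Hspd1 and Hspe1 share their matches, and the windows of Hsph1 overlap. Dnajb1 was the member with windows and no match of these letters. A 3-unit match stood in 0.466% of all promoters. The windows of Hspa8, Hsp90aa1 and Hsp90ab1 were not analysed here. A match is a description of the letters, not evidence of binding.

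Of 15394 barcodes assigned to a mouse, 15384 were kept, with 1723 (Egr2fl/fl) and 1590 (Lyz2Cre/+.Egr2fl/fl) cells on ND and 5885 and 6186 on CDA-HFD. A total of 27840300 to 90124521 counts per mouse and a median of 13168 to 16459 counts per cell were available. Levels are counts per 1000000 of all counts of the cells named (CPM), with 95% exact Poisson intervals that cover counting error only. Egr2 itself stood at 13.3 and 5.85 CPM in the ND-fed Egr2fl/fl and Lyz2Cre/+.Egr2fl/fl mice and at 49.4 and 18.2 CPM on CDA-HFD. Immediate early genes summed to 2600 and 2262 CPM on ND and to 7267 and 6719 CPM on CDA-HFD. Hepatocyte markers summed to 36.5 to 124 CPM, with the highest value in the ND-fed Lyz2Cre/+.Egr2fl/fl mouse. Cell types are gates on marker genes. They held 12706 cells, while 2678 (17.4%) stayed ungated, 1317 of them with enough markers of a type but no clear lead over the next type. Of the gated cells, 2163 (17.0%) lay near the limit of the lead, so each gate is a range rather than a sharp type. Among the 10 genes with the highest fold in each gate, 3 to 6 were markers of that gate and 0 were markers of another. The same markers set the gates, so this is no check of their purity. Cells of the Ly6Clo monocyte gate had a median of 3984 CPM of Ly6Chi markers and 3617 CPM of their own. A gate was used in a mouse where it held at least 50 cells.

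The stress-inducible HSP70 genes had the widest range among the mice. Hspa1a stood at 84.7 CPM (81.6 to 88.0) in the ND-fed Egr2fl/fl mouse, 113 (109 to 117) in the ND-fed Lyz2Cre/+.Egr2fl/fl mouse, 940 (934 to 947) in the CDA-HFD-fed Egr2fl/fl mouse and 274 (271 to 278) in the CDA-HFD-fed Lyz2Cre/+.Egr2fl/fl mouse. Hspa1b, in the same order, stood at 28.8, 37.3, 311 and 89.6 CPM. The CDA-HFD-fed Egr2fl/fl mouse was far above the other 3 in both genes, the second CDA-HFD-fed mouse lay between it and the ND-fed mice, and none of the 4 intervals overlapped. The ratio of Hspa1a to Hspa1b counts over all cells was 2.95 (2.73 to 3.18), 3.04, 3.02 and 3.06 in the 4 mice, with exact binomial intervals that all overlapped. It was not fixed within gates. In the CDA-HFD-fed Egr2fl/fl mouse it was 3.44 (3.34 to 3.54) in monocyte-derived macrophages and 2.75 (2.67 to 2.84) in Cd209a+ dendritic cells. Cd209a+ dendritic cells of the CDA-HFD-fed Lyz2Cre/+.Egr2fl/fl mouse had 3.27 (3.10 to 3.46). Of the 75-base stretches of Hspa1a transcripts, 52.7% also occur in Hspa1b, so a read from this shared part cannot tell the genes apart and each single value is uncertain. The sum of both genes, 113, 151, 1251 and 364 CPM, does not depend on how such reads were split between them.

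Dnajb1, which stimulates the ATPase of HSP70, stood at 41.4, 44.9, 87.2 and 44.5 CPM in the same order of mice. Only the CDA-HFD-fed Egr2fl/fl mouse stood out, and the other 3 lay within 41.4 to 44.9. Hsph1, a nucleotide exchange factor of HSP70, went the other way with diet over all cells, though not in every gate. It had 44.5 and 33.3 CPM on ND and 30.6 and 20.1 CPM on CDA-HFD. It was the one stress-inducible member that was highest in an ND-fed mouse. The sum of Hspa1a, Hspa1b, Dnajb1 and Hsph1, called the stress-inducible sum below, was 199, 229, 1369 and 428 CPM.

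Hsp90aa1, the inducible cytosolic HSP90, stood at 361, 289, 681 and 329 CPM. Again the CDA-HFD-fed Egr2fl/fl mouse was highest, and the other 3 mice lay between 289 and 361. Hsp90ab1, the constitutive HSP90, kept within 1339 (1332 to 1347) and 1760 (1745 to 1774) CPM, with the ND-fed Egr2fl/fl mouse highest. Hspa8, the constitutive HSP70 of the cytosol, stood at 1546 CPM in the ND-fed Egr2fl/fl mouse and at 986 to 1030.2 CPM in the other 3. So the HSP90 and HSP70 pairs each held an inducible gene with its peak in the CDA-HFD-fed Egr2fl/fl mouse and a constitutive gene with its peak in the ND-fed Egr2fl/fl mouse. Dnaja1, a J protein of the cytosol, stood at 216 and 221 CPM on ND and 180.2 and 127 CPM on CDA-HFD. Hspd1 ranged from 99.5 to 123 CPM and Hspe1 from 259 to 334 CPM, the narrowest ranges in proportion beside Hsp90ab1. Of the 75-base stretches of Hsp90aa1, Hspa8 and Hspd1, 42.8%, 32.8% and 29.6% also occur in other genes, mostly processed pseudogenes, against 0% for Dnajb1 and Hsph1, and the levels of the first 3 are uncertain to that extent.

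**Figure D1:**
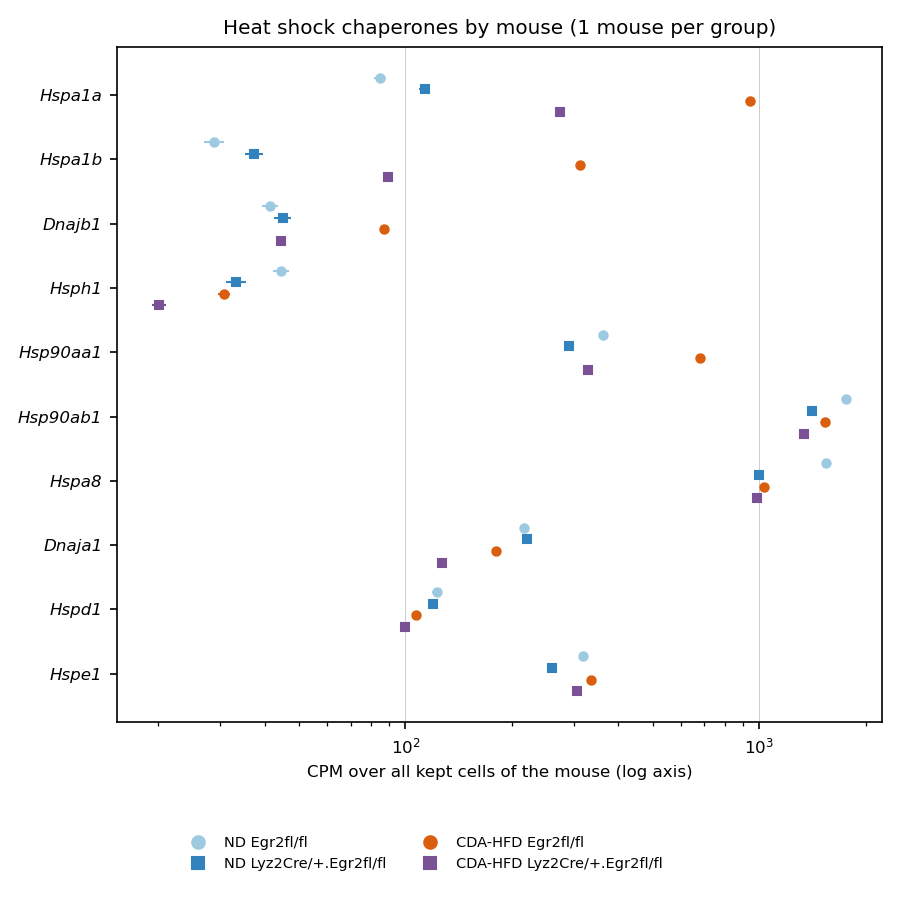
CPM of the 10 chaperones (log axis) over all kept cells of each of the 4 mice; points are the 4 mice, 1 per group, and bars are 95% exact Poisson intervals, often narrower than the point. Hspa1a at 940 CPM and Hspa1b at 311 CPM of the CDA-HFD-fed Egr2fl/fl mouse stand far to the right of the other mice, while the 4 points of Hsp90ab1, Hspd1 and Hspe1 lie close together.

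The first comparison asked how the genotypes differed on CDA-HFD. All 10 members were lower in the Lyz2Cre/+.Egr2fl/fl mouse than in the Egr2fl/fl mouse. The ratios were 0.292 (0.287 to 0.296) for Hspa1a, 0.288 (0.281 to 0.295) for Hspa1b, 0.483 for Hsp90aa1, 0.510 for Dnajb1 and 0.656 for Hsph1. These 5 of 10 members lay at or below 1/1.5, the fold limit used here in place of a test, against 0.829% of the 10860 genes with enough counts. By rank from the lowest ratio of all these genes, Hspa1b was number 5, Hspa1a 6, Hsp90aa1 13, Dnajb1 24 and Hsph1 80. The other 5 members had smaller differences, with 0.706 for Dnaja1, 0.874 for Hsp90ab1, 0.918 for Hspe1, 0.930 for Hspd1 and 0.957 for Hspa8. No member lay at or above 1.5, against 1.15% of all genes. Since the members were chosen for differences of this kind, the counts are a description.

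On ND the same comparison of genotypes gave no such picture. Hspa1a and Hspa1b were higher in the Lyz2Cre/+.Egr2fl/fl mouse, at ratios of 1.34 (1.27 to 1.41) and 1.30 (1.19 to 1.42). Hsp90aa1, Hsp90ab1, Hspe1 and Hsph1 were lower, at 0.802, 0.799, 0.814 and 0.748. Hspa8 was the 1 member at or below 1/1.5, at 0.648 (0.638 to 0.657), against 1.68% of 8653 genes, and 0 members reached 1.5, against 2.05%. Dnajb1 (1.09), Dnaja1 (1.02) and Hspd1 (0.975) were close to 1, and the ratio of Dnaja1 passed to the other side of 1, at 0.993, with TMM scaling, which sets samples by the bulk of their genes.

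CDA-HFD against ND in the Egr2fl/fl mice gave the highest ratios. Hspa1a was 11.1 (10.7 to 11.5) and Hspa1b 10.8 (10.1 to 11.6) times as high on CDA-HFD, with Dnajb1 at 2.11 and Hsp90aa1 at 1.89. These 4 members reached 1.5, against 9.04% of 10091 genes, and Hspa8, at 0.666, was the 1 member at or below 1/1.5, against 17.3%. With TMM scaling Hspa8 stood at 0.738, inside the limit, and 4 members in place of 5 lay past it. Hsph1 stood at 0.689, Dnaja1 at 0.834, Hsp90ab1 and Hspd1 at 0.871 each and Hspe1 at 1.05. The median of all tested genes was 0.917 in this comparison, and TMM scaling shifted all ratios of the diet comparisons up by 0.15 (Egr2fl/fl) and 0.16 (Lyz2Cre/+.Egr2fl/fl) on the log2 scale. The mix of cells differed with diet: Kupffer cells made up 44.0% and 52.2% of the cells of the ND-fed mice, while 10 and 18 Kupffer cells were gated on CDA-HFD.

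In the Lyz2Cre/+.Egr2fl/fl mice the diet ratios were smaller. Hspa1a stood at 2.42 (2.33 to 2.51) and Hspa1b at 2.40 (2.25 to 2.56), the 2 members that reached 1.5, against 10.3% of 10194 genes. Dnaja1 (0.575) and Hsph1 (0.604) lay at or below 1/1.5, against 18.3%. With TMM scaling Hsph1 stood at 0.677, inside the limit, and 3 members in place of 4 lay past it. Hsp90aa1 had a ratio of 1.14, Hspe1 of 1.18 and Hspd1 of 0.831. Dnajb1, Hspa8 and Hsp90ab1 stood just below 1, at 0.991, 0.984 and 0.952, and just above it with TMM scaling, at 1.11, 1.10 and 1.07. The 4 comparisons share mice with each other, so their ratios are not independent.

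On CDA-HFD the stress-inducible sum was higher in the monocyte and dendritic cell gates than in the macrophage and neutrophil gates. In the CDA-HFD-fed Egr2fl/fl mouse it stood at 2129 CPM (2091 to 2167) in Ly6Clo monocytes, 1969.8 in Cd209a+ dendritic cells, 1610.0 in Ccr7+ mature dendritic cells, 1586 in Ly6Chi monocytes, 956 in monocyte-derived macrophages and 232 (218 to 247) in neutrophils. The intervals of Ccr7+ dendritic cells and Ly6Chi monocytes overlapped, and those of the other neighbours in this order did not. The CDA-HFD-fed Lyz2Cre/+.Egr2fl/fl mouse had another order, with Cd209a+ dendritic cells first at 729 CPM, then Ccr7+ dendritic cells at 595 and Xcr1+ dendritic cells at 593, Ly6Clo monocytes at 478, Ly6Chi monocytes at 413, monocyte-derived macrophages at 267 and neutrophils at 194. Its dendritic cells thus stood above its monocytes, whereas in the Egr2fl/fl mouse Ly6Clo monocytes were first. Ly6Chi monocytes were not of 1 level, since a Louvain cluster of them had 2208 CPM (Egr2fl/fl) and 405 CPM (Lyz2Cre/+.Egr2fl/fl). Another had 902 and 294 CPM, close to the macrophage clusters at 892 and 1056 CPM (Egr2fl/fl) and 317 and 286 CPM (Lyz2Cre/+.Egr2fl/fl).

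In the ND-fed mice the sum ranged from 101 CPM in neutrophils to 403 in Ly6Clo monocytes (Egr2fl/fl) and from 122 in neutrophils to 463 in Ly6Clo monocytes (Lyz2Cre/+.Egr2fl/fl). Kupffer cells, the resident macrophages of the liver and the gate with the most cells on ND, had 193 and 207 CPM. Among the gates, Cd209a+ dendritic cells differed most between the ND-fed genotypes, at 168 CPM (153 to 185) in Egr2fl/fl and 304 (281 to 328) in Lyz2Cre/+.Egr2fl/fl. By Louvain clusters they had 172 and 269 CPM, about the same proportion as the Ly6Clo cluster at 383 and 600.3 CPM. In the 50 T or NK lymphocytes of the ND-fed Egr2fl/fl mouse, where the sum was 213 CPM, Dnajb1 stood at 113 and Hsph1 at 66.2 CPM while Hspa1a rested on 7 counts.

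**Figure D2:**
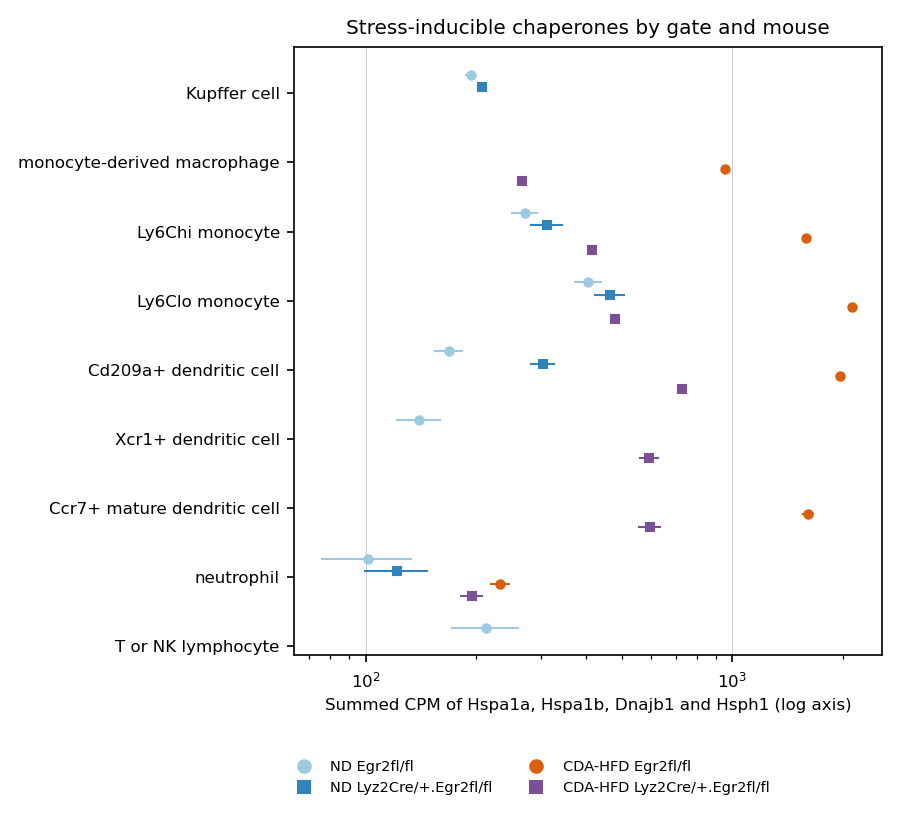
Summed CPM of Hspa1a, Hspa1b, Dnajb1 and Hsph1 (log axis) in each marker gate with at least 50 cells of a mouse; points are the 4 mice and bars 95% exact Poisson intervals. The CDA-HFD-fed Egr2fl/fl mouse is to the right in every gate it fills, from 232 CPM in neutrophils to 2129 CPM in Ly6Clo monocytes.

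The genotype difference on CDA-HFD was present inside the gates. In all 6 gates with enough cells Hspa1a was lower in the Lyz2Cre/+.Egr2fl/fl mouse, from a ratio of 0.203 in Ly6Clo monocytes to 0.390 in Cd209a+ dendritic cells among the gates other than neutrophils, where it was 0.754 by summed counts (117 and 88.2 CPM, or 72.4 and 51.2 CPM as a mean over cells). Neutrophil clusters were not of 1 direction, since the stress-inducible sum was 105 CPM in Egr2fl/fl and 142 in Lyz2Cre/+.Egr2fl/fl in one of them and 138 and 123 CPM in another. Hspa1b followed the same range, from 0.208 in Ly6Clo monocytes to 0.810 in neutrophils. Monocyte-derived macrophages had 681 CPM of Hspa1a in the Egr2fl/fl mouse and 168 in the Lyz2Cre/+.Egr2fl/fl mouse. Ly6Chi monocytes, their blood-derived precursors, had 1118 and 256 CPM. Cd209a+ dendritic cells had 1269.5 and 495 CPM. The ungated cells had a stress-inducible sum of 1517 and 486 CPM, between the values of the gates.

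Hsp90aa1 was lower in the Lyz2Cre/+.Egr2fl/fl mouse in 6 of 6 gates, at ratios from 0.382 in Ly6Clo monocytes to 0.670 in neutrophils. Dnajb1 was lower in 5 of 6, from 0.327 in Ccr7+ dendritic cells to 0.629 in Ly6Chi monocytes, and stood at 1.08 in neutrophils with an interval that held 1. Hsph1 divided the gates, at 0.283 in Cd209a+ dendritic cells, where it went from 53.7 to 15.2 CPM, and 0.954 in monocyte-derived macrophages, where both mice had 26.6 and 25.4 CPM. So the macrophages shared the lower HSP70 genes but not the lower Hsph1. Dnaja1 ranged from 0.529 in Ly6Clo monocytes to 0.899 in Ccr7+ dendritic cells. Hsp90ab1, Hspa8, Hspd1 and Hspe1 kept between 0.621 and 1.09 in all 6 gates, and the lowest of these values, for Hspd1 in neutrophils, came from levels of 32.8 and 20.4 CPM.

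Counted by gate, the members at or below 1/1.5 were 4 of 10 in monocyte-derived macrophages (1.16% of all genes tested there), 5 of 10 in Ly6Chi monocytes (0.904%), 5 of the 9 with enough counts in Ly6Clo monocytes (0.763%), 6 of 10 in Cd209a+ dendritic cells (0.915%), 3 of 6 in Ccr7+ dendritic cells (2.78%) and 0 of 6 in neutrophils (3.25%). Hspa1a, Hspa1b and Hsp90aa1 were among them in each of the 5 gates with a count above 0. In the other direction, 0 members reached 1.5 in any of these gates, against 1.18%, 1.28%, 1.67%, 0.808%, 1.67% and 2.18% of the genes in the same order of gates.

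**Figure D3:**
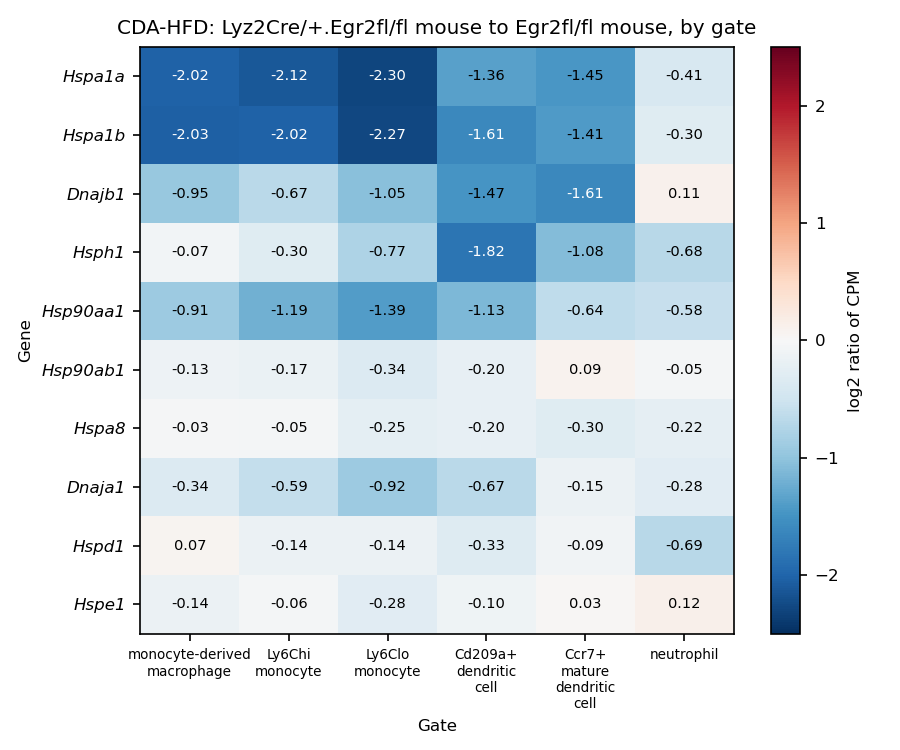
Log2 ratio of CPM, CDA-HFD-fed Lyz2Cre/+.Egr2fl/fl mouse to CDA-HFD-fed Egr2fl/fl mouse, for each chaperone (y axis) and gate (x axis); blue is lower and red higher in the Lyz2Cre/+.Egr2fl/fl mouse. Hspa1a reaches -2.30 in Ly6Clo monocytes, Hsph1 is the lowest row in Cd209a+ dendritic cells at -1.82 and Dnajb1 in Ccr7+ dendritic cells at -1.61, and the neutrophil column is paler for Hspa1a, at -0.41.

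On ND the gates carried the opposite direction for HSP70. Hspa1b was higher in the Lyz2Cre/+.Egr2fl/fl mouse in 5 of 5 gates and Hspa1a in 4 of 5, with ratios of Hspa1a from 0.829 in neutrophils, where the interval held 1, to 2.68 in Cd209a+ dendritic cells. The intervals lay above 1 in 4 gates for Hspa1b and in 3 for Hspa1a. Hspa8 and Hsp90ab1 were lower in that mouse in 5 of 5 gates, at 0.627 to 0.848 and 0.470 to 0.886. Hspa8 in Kupffer cells, the gate with the most cells, stood at 1510.1 CPM in the Egr2fl/fl mouse and 947 in the Lyz2Cre/+.Egr2fl/fl mouse.

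The diet ratios could be formed in 4 gates that both diets filled. In the Egr2fl/fl mice Hspa1a was 3.10 (neutrophils) to 20.7 (Cd209a+ dendritic cells) times as high on CDA-HFD by summed counts. The neutrophil ratio moved with the averaging, since the levels were 37.7 and 117 CPM by summed counts but 46.0 and 72.4 CPM as a mean over cells, and 8.18% and 8.01% of the thinned cells had a count. Clusters of these cells also differed by diet. The cluster that held most clustered neutrophils of the ND-fed Egr2fl/fl mouse (102 cells) had a stress-inducible sum of 101 CPM there and 105 CPM in the CDA-HFD-fed Egr2fl/fl mouse, while 558 cells of the latter lay in another cluster, at 138 CPM. In the Lyz2Cre/+.Egr2fl/fl mice its ratio ran from 1.13 in Ly6Clo monocytes, with an interval that held 1, to 3.02 in Cd209a+ dendritic cells. The stress-inducible sum of Ly6Clo monocytes was nearly the same on both diets in the Lyz2Cre/+.Egr2fl/fl mice, 463 and 478 CPM, against 403 and 2129 CPM in the Egr2fl/fl mice. The Ly6Clo cluster made by Louvain clustering had 600.3 CPM (ND) and 509.7 CPM (CDA-HFD) for the Lyz2Cre/+.Egr2fl/fl genotype, and 383 and 3056 CPM for Egr2fl/fl. This cluster held 121 cells of the ND-fed and 249 of the CDA-HFD-fed Egr2fl/fl mouse, against 146 and 530 in the gate. Hsp90aa1 was higher on CDA-HFD in 4 of 4 gates of the Egr2fl/fl mice, at 1.46 to 2.55, and ranged around 1, from 0.929 to 1.46, in the Lyz2Cre/+.Egr2fl/fl mice. Hspa8 was lower on CDA-HFD in all 4 gates of both genotypes, and in Ly6Clo monocytes of the Lyz2Cre/+.Egr2fl/fl mice the interval of its ratio, 0.985, held 1. Hsph1 divided the gates of the Egr2fl/fl mice, at 1.43 in Cd209a+ dendritic cells and 0.525 in Ly6Chi monocytes. It stood at 0.969 in Ly6Clo monocytes and 1.55 in neutrophils there, with intervals that held 1. Dnaja1 was above 1 there in Ly6Chi monocytes (1.28) and Cd209a+ dendritic cells (1.23), and below 1 in Ly6Clo monocytes (0.930) and neutrophils (0.753). In the Lyz2Cre/+.Egr2fl/fl mice both genes were below 1 in 4 of 4 gates.

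To compare shares of cells, every cell was thinned to 3000 counts, which left out no cell. A count of Hspa1a was then found in 16.5%, 20%, 49.0% and 31.0% of the cells of the 4 mice, and one of Hspa1b in 7.60%, 9.18%, 34.4% and 16.3%. As deposited, 40.5% of the cells of the ND-fed Egr2fl/fl mouse and 61.3% of those of the CDA-HFD-fed Egr2fl/fl mouse had a count of Hspa1a. Neutrophils, which had the lowest depth (a median of 4063 counts, against 20525 in monocyte-derived macrophages), had a count of Hspa1a in 7.69% to 8.86% of the thinned cells in all 4 mice. The share of neutrophils did not follow the order of the mice. In the T or NK gate of the ND-fed Egr2fl/fl mouse it was 0 of 50 thinned cells (exact interval up to 7.11% at that depth) and 12% of the same cells as deposited. The part of free RNA in these shares was not tested. Dnajb1 was found in 10.2%, 10.8%, 14.4% and 10.4% of cells, against 8.18% to 10.2% of neutrophils (8.89% in the CDA-HFD-fed Egr2fl/fl mouse), and Hsph1 in 9.58%, 6.92%, 5.79% and 4.40%, against 0.909% to 2.05% of neutrophils. Hsp90ab1 and Hspa8 were found in most cells of every mouse, 84.0% to 92.5% and 80.1% to 93.9%.

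A cell was said to have a strong signal at 10 or more stress-inducible counts per 10000, which is at least 3 counts in a thinned cell. This held for 109 of 1723 cells (6.33%, exact 95% binomial interval 5.22 to 7.58) in the ND-fed Egr2fl/fl mouse and 118 of 1590 (7.42%) in the ND-fed Lyz2Cre/+.Egr2fl/fl mouse. On CDA-HFD it held for 2268 of 5885 cells (38.5%, 37.3 to 39.8) in the Egr2fl/fl mouse and 1084 of 6186 (17.5%, 16.6 to 18.5) in the Lyz2Cre/+.Egr2fl/fl mouse. The intervals of the ND-fed mice overlapped, and the CDA-HFD-fed mice stood apart from them and from each other. Of the thinned cells of the CDA-HFD-fed Egr2fl/fl mouse 41.5% had 0 stress-inducible counts, against 65.0%, 62.2% and 56.1% in the other mice in the same order. A 0 at this depth does not show that a cell lacked the signal. As deposited, 73.0% of the cells of the CDA-HFD-fed Egr2fl/fl mouse had a count, against 58.5% thinned. Cells of this mouse spread widely: the 75th percentile was 16.7 and the 90th 40 counts per 10000, against 6.67 and 13.3 in the CDA-HFD-fed Lyz2Cre/+.Egr2fl/fl mouse.

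In the CDA-HFD-fed Egr2fl/fl mouse dendritic cells and Ly6Clo monocytes had the highest strong shares, with overlapping intervals. The strong cells were 59.0% of Cd209a+ dendritic cells, 58.0% of Ccr7+ dendritic cells, 52.1% of Ly6Clo monocytes, 44.1% of Ly6Chi monocytes and 33.6% of monocyte-derived macrophages. The CDA-HFD-fed Lyz2Cre/+.Egr2fl/fl mouse had 34.6%, 20.9%, 20.2%, 17.7% and 10.5% in these gates, and its Cd209a+ dendritic cells (31.0 to 38.3) lay above its Ly6Clo monocytes (17.1 to 23.5). Every one of these 5 gates was lower in the Lyz2Cre/+.Egr2fl/fl mouse, with intervals that did not overlap. Neutrophils had 5.71% (4.29 to 7.42) and 5.29% (3.81 to 7.14) on CDA-HFD and 3.64% and 5.13% on ND, all overlapping. By their share of the strong cells, neutrophils made up 2.29% of them against 15.5% of all cells of the CDA-HFD-fed Egr2fl/fl mouse, while Cd209a+ dendritic cells made up 18.4% of them against 12.0% of all cells.

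**Figure D4:**
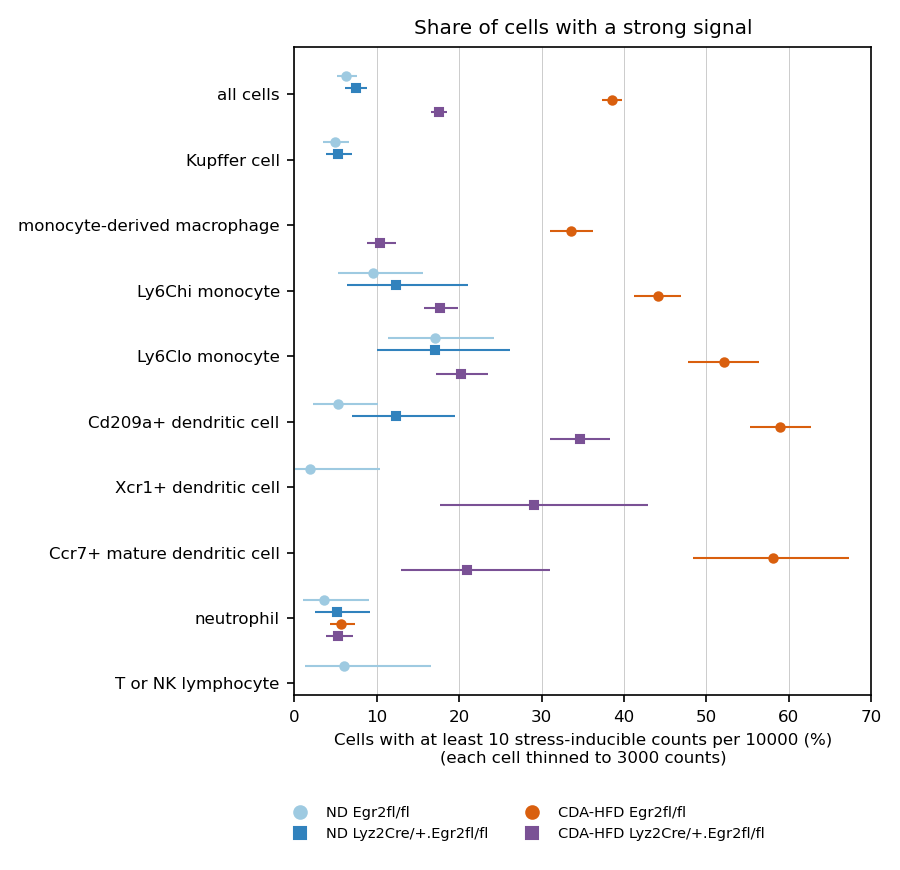
Percentage of cells with at least 10 stress-inducible counts per 10000, after thinning each cell to 3000 counts, over all cells and by gate; points are the 4 mice and bars exact 95% binomial intervals. The CDA-HFD-fed Egr2fl/fl mouse stands at 38.5% of all cells and up to 59.0% in Cd209a+ dendritic cells, and the 4 neutrophil points lie together below 6%.

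In the CDA-HFD-fed Egr2fl/fl mouse the strong cells had a median of 13928 counts and 2.14% mitochondrial counts, and the other cells 12596 counts and 1.92%. The depth went the other way on ND, with 10574 (Egr2fl/fl) and 11547.5 (Lyz2Cre/+.Egr2fl/fl) counts in strong cells and 16968.5 and 16272 in the others. In strong and other cells of the CDA-HFD-fed Egr2fl/fl mouse their own hashtag took a median of 93.8% and 93.2% of the hashtag counts, and on ND 91.8% and 93.1% (Egr2fl/fl) and 93.5% and 92.8% (Lyz2Cre/+.Egr2fl/fl). Immediate early genes had a median of 7271 CPM in strong and 6947 CPM in other cells of the CDA-HFD-fed Egr2fl/fl mouse. In the CDA-HFD-fed Lyz2Cre/+.Egr2fl/fl mouse the order was opposite, 5393 CPM in strong and 6531 CPM in other cells, and in the ND-fed mice the strong cells had 2971 and 2977 CPM and the other cells 2163 and 1794 CPM. These medians pool all cell types, whose mix differed between strong and other cells. Kupffer cells, with a median of 24527 counts, made up 33.9% of the strong and 44.0% of all cells of the ND-fed Egr2fl/fl mouse. The part of the cell mix in these medians, and that of the sort or digestion in the chaperone levels, was not tested.

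Co-expression is given as Pearson's r over the thinned cells of 1 gate of 1 mouse, averaged over the gates with at least 100 cells. It is a description, since cells of a mouse share its sort and library, and a weak r in sparse counts is no finding. Hspa1a and Hspa1b had the highest r of all pairs on CDA-HFD, 0.624 (0.456 to 0.723 over 6 gates) in the Egr2fl/fl mouse and 0.418 (0.302 to 0.492 over 5 gates) in the Lyz2Cre/+.Egr2fl/fl mouse. On ND the pair had 0.302 and 0.181. The part of reads shared by both genes in this pair was not tested.

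In the CDA-HFD-fed Egr2fl/fl mouse Hspa1a also went with Hsp90aa1 (0.335), Hspa8 (0.221), Dnaja1 (0.178), Hsph1 (0.164) and Dnajb1 (0.155), and Hsp90aa1 with Dnaja1 (0.236). These pairs were all at 0.101 or lower in the CDA-HFD-fed Lyz2Cre/+.Egr2fl/fl mouse. Over all pairs of the 10 members the mean r was 0.139 in the former and 0.0406 in the latter, against 0.0496 and 0.0282 on ND. Without the pair of Hspa1a and Hspa1b, the stress-inducible pairs had 0.150, 0.0373, -0.0140 and 0.00689 in the same 4 mice. Hspa1a was found in 31.0% of the thinned cells of the CDA-HFD-fed Lyz2Cre/+.Egr2fl/fl mouse and in 49.0% of those of the CDA-HFD-fed Egr2fl/fl mouse. The gates averaged also differed between the mice. The part of level and gate set in these r values was not tested. The chaperonin partners Hspd1 and Hspe1, whose proteins work as 1 complex, had 0.0582 and 0.0315 on CDA-HFD, a weak value at this depth.

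**Figure D5:**
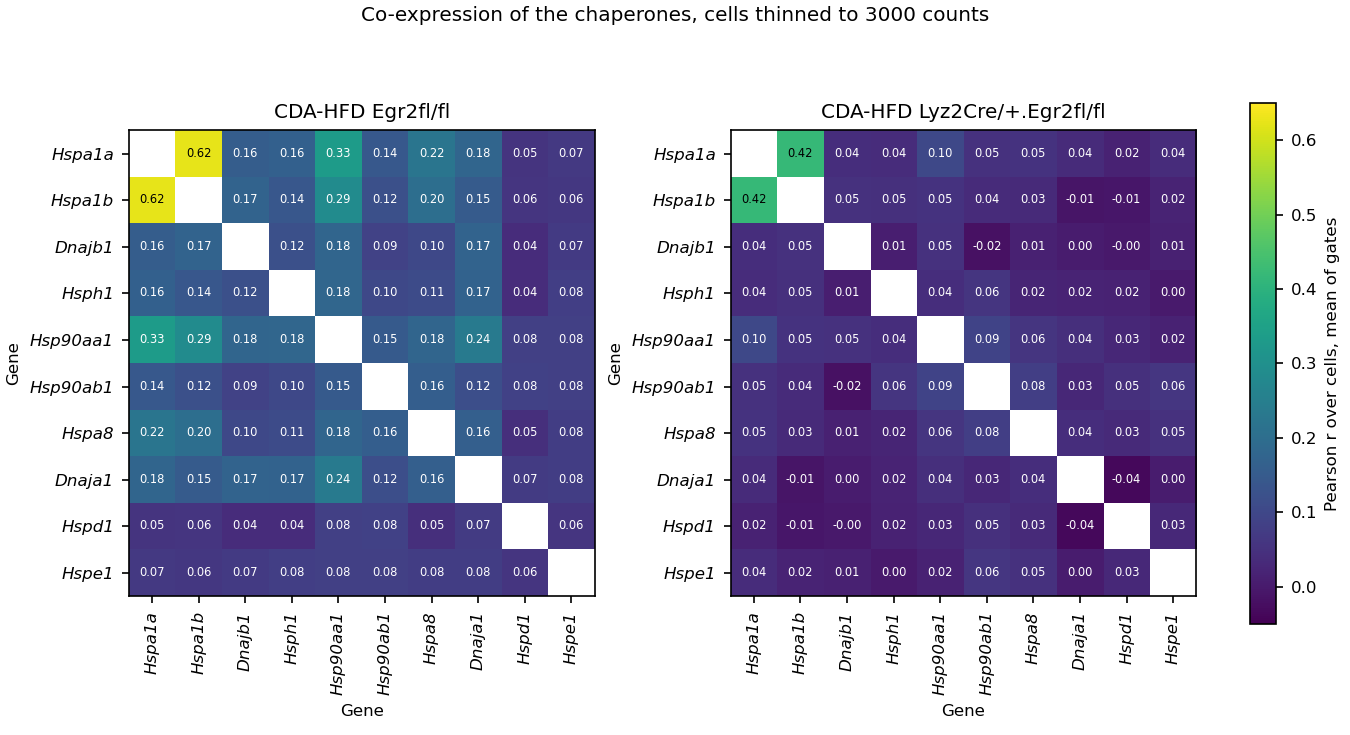
Mean over gates of Pearson's r over cells for each pair of chaperones, in the CDA-HFD-fed Egr2fl/fl mouse (left) and the CDA-HFD-fed Lyz2Cre/+.Egr2fl/fl mouse (right), each cell thinned to 3000 counts; the colour scale is the same in both panels. The pair of Hspa1a and Hspa1b stands out in both, at 0.62 and 0.42, and Hsp90aa1 joins them at 0.33 and 0.29 in the left panel.

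Genes outside the list were ranked by their mean r with the stress-inducible sum over 19 combinations of mouse and gate, for the 4009 genes detected in 20% of cells or more, here with cells at their deposited depth. The median gene had a mean r of 0.00262 and the 99th percentile was 0.0535. Jun, a subunit of AP-1, came first at 0.178, positive in 18 of 19 combinations. Rhob (0.106), a small GTPase, Ubb (0.0998), a polyubiquitin gene, and Txnip (0.101), the thioredoxin-interacting protein, were also among the first 10. Of the members, Hsp90aa1 had 0.196, Hspa8 0.158, Dnaja1 0.155, Hsp90ab1 0.105, Hspe1 0.0710 and Hspd1 0.0362. The pseudogenes Gm12346 (0.171) and Gm5844 (0.133) share 66.1% and 41.6% of their 75-base stretches with Hsp90aa1, and Gm15459 (0.119) and Gm8355 (0.102) share 79.9% and 43.3% with Hspa8. Ubb-ps (0.101) was also among them. The protein-coding genes named here differed less between the CDA-HFD-fed genotypes than the HSP70 genes did, with ratios of 0.788 for Jun, 0.751 for Rhob and 0.882 for Ubb, and Txnip was higher at 1.20.

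Most other chaperone genes stood near a ratio of 1. Of 78 genes in 8 lists (other HSP70 and HSP110 genes, other J proteins, co-chaperones, heat shock factors, small heat shock proteins, TRiC chaperonin, prefoldin, and endoplasmic reticulum chaperones with the unfolded protein response), 72 had enough counts in the genotype comparison on CDA-HFD. There 0 reached 1.5, against 1.15% of all genes, and 3 of 72 lay at or below 1/1.5, against 0.829%, with a median ratio of 1.03 beside 1.02 for all tested genes. The 3 were Hspb1, a small heat shock protein, at 0.220 (from 9.79 to 2.15 CPM), Hspa1l, a further HSP70 gene, at 0.321 (from 4.83 to 1.55 CPM), and Bag3, an HSP70 co-chaperone, at 0.514 (14.9 CPM in the Lyz2Cre/+.Egr2fl/fl mouse). Hspa1l is uncertain, since 5.88% of the 75-base stretches of Hspa1a occur in it. The highest ratio in these 8 lists was that of Fkbp4, an HSP90 co-chaperone, at 1.26. Fkbp5, a further HSP90 co-chaperone, was placed in the glucocorticoid-induced list instead and stood at 2.53. Hsf1, which encodes the heat shock factor itself, stood at 14.5 CPM in the Egr2fl/fl and 15.6 CPM in the Lyz2Cre/+.Egr2fl/fl mouse, a ratio of 1.07 with an interval that held 1.

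By list, the median ratios of this comparison were 1.01 for other HSP70 and HSP110 genes, 1.00 for other J proteins, 1.04 for co-chaperones, 1.05 for heat shock factors, 0.640 for the 2 small heat shock proteins with enough counts, 1.04 for TRiC, 0.990 for prefoldin and 1.04 for endoplasmic reticulum chaperones. Of the 17 endoplasmic reticulum genes and the 8 subunits of the TRiC ring, 0 lay past the limit in either direction, from 0.813 for Ddit3 to 1.22 for Pdia4 and from 1.01 for Cct4 to 1.08 for Cct7. On ND, 1 of 68 genes reached 1.5, Dnajb4 at 1.65, against 2.05% of all genes, and 0 lay at or below 1/1.5, against 1.68%.

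Between diets in the Egr2fl/fl mice, 5 of 70 genes reached 1.5, against 9.04% of all genes, and 16 lay at or below 1/1.5, against 17.3%, with a median of 0.868. Hspb1 (6.40), Dnajb4 (2.15), Ddit3 (1.90) and Bag3 (1.66) were among the 5. Hspa4l (0.405), Dnajb2 (0.426), Fkbp4 (0.450) and Dnajc3 (0.468) had the lowest ratios. In the Lyz2Cre/+.Egr2fl/fl mice 1 of 69 reached 1.5, Hsf2 at 1.57, against 10.3% of all genes, and 12 lay at or below 1/1.5, against 18.3%, with a median of 0.872. The median of the lists lay below that of all genes in both genotypes, 0.917 and 0.912.

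Immediate early genes, which also respond to handling, differed past the limit between diets and not between the genotypes on CDA-HFD. Their median ratio on CDA-HFD was 0.899 between genotypes, with 0 of 15 past the limit in either direction, from 0.788 for Jun to 1.16 for Fos. Between diets, where 9.04% and 10.3% of all genes reached 1.5, 13 of 15 did so in the Egr2fl/fl mice (median 2.72, with Klf2 lowest at 0.612) and 14 of 15 in the Lyz2Cre/+.Egr2fl/fl mice (median 2.91), and Atf3, a stress-responsive transcription factor, had a ratio of 10.6 in the Egr2fl/fl mice. The glucocorticoid-induced gene Fkbp5, an HSP90 co-chaperone, was higher in the Lyz2Cre/+.Egr2fl/fl mouse, at 2.53 on CDA-HFD and 1.55 on ND. Of the glucocorticoid-induced list, 2 of 7 reached 1.5 in the genotype comparison on CDA-HFD (median 1.26, against 1.15% of all genes) and 2 of 6 on ND (median 1.29, against 2.05%), with 1 at or below 1/1.5 on ND, against 1.68%. The widely expressed reference genes had 0 of 9 past the limit in either genotype comparison, with medians of 1.02 on CDA-HFD and 0.957 on ND. Between diets 2 of 9 reached 1.5 in each genotype, with medians of 1.20 in the Egr2fl/fl and 1.22 in the Lyz2Cre/+.Egr2fl/fl mice.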

How the data were processed

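Single-cell libraries of 4 mice were pooled in 1 BD Rhapsody capture and amplified by TAS-Seq. The authors mapped the reads to GRCm38 and deposited a matrix of counts per gene and cell, with hashtag counts per barcode; whether the values are reads or unique molecules is not given in the sources used here. The submitters' processing notes name Seurat 4.1.1 and R 4.2.1. Of 16786 barcodes, 1392 (8.29%) marked as doublets from the hashtags were left out, as were 10 cells with over 25% mitochondrial counts. The hashtag table held 7 columns of no mouse, which were not used. In 34 genes the values 1 to 4 did not occur, and no member was among them.

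Cells were gated by the share of marker genes at 1 or more counts per 10000: at least 3 markers and 0.4 of the list, and a lead of 0.1 over the next type. Counts were summed per mouse and gate and given as CPM with exact Poisson intervals. Ratios of CPM have exact binomial intervals, and genes with at least 500 summed counts entered the background. With 1 mouse per group no model was fitted and no p-value is given. A ratio of 1.5 stands in for a call. Cells were thinned to 3000 counts for shares and co-expression. Python 3.11.15, numpy 2.4.6, scipy 1.17.1 and matplotlib 3.10.9 were used, with R 4.3.3, edgeR 4.0.16 (TMM factors) and Seurat 5.3.0 (Louvain clusters) for alternatives, and the ratio step was tested on simulated counts.

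The members and lists were chosen with earlier results of these data known. Named genes are the members, the genes with the highest and lowest ratio of each list, and the 10 genes outside the list most like the stress-inducible sum by mean r, for genes detected in 20% of cells or more; 1 of these 10 is not reported here. Bag3, Hspa1l, Hspb1, Hsf1, Ddit3 and the genes named for the diet comparisons beyond the extremes of a list were chosen after their values were seen.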

Additional observations from a re-analysis of the deposited data

Results flagged for a closer look

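The genotype ratio, Lyz2Cre/+.Egr2fl/fl to Egr2fl/fl, pointed in opposite directions on the 2 diets, with neither interval holding 1, for 3 members and for the stress-inducible sum. Dnaja1, at 0.706 on CDA-HFD and 1.02 on ND, was not among them, since its ND interval (0.989 to 1.06) held 1. Hspa1a had a ratio of 0.292 on CDA-HFD and 1.34 on ND. For Hspa1b the ratios were 0.288 and 1.30, and for Dnajb1 they were 0.510 and 1.09. The stress-inducible sum stood at 0.313 on CDA-HFD and 1.15 on ND. The ND ratio of Dnajb1 lay close to 1, and within the 5 gates it ran from 0.834 to 1.33 with every interval holding 1. With 1 mouse for each combination of genotype and diet, the difference between diets was not tested.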

How the results depend on the processing

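The 4 ratios of the stress-inducible sum kept their direction under every setting run. The genotype ratio on CDA-HFD, 0.313, was 0.307 with TMM scaling, 0.318 as a mean over cells, 0.317 in cells whose own hashtag took 90% or more of the hashtag counts, 0.351 as the geometric mean of the ratios within gates, 0.309 in gated cells and 0.307 without the neutrophil gate, a setting chosen after seeing the data. On ND the ratio, 1.15, was 1.25 as the geometric mean within gates. The diet ratio in Egr2fl/fl mice, 6.87, was 7.61 with TMM scaling, 6.34 as a mean over cells, 5.36 as the geometric mean, 6.57 in gated cells and 7.12 without neutrophils. In Lyz2Cre/+.Egr2fl/fl mice the diet ratio, 1.87, was 2.10 with TMM scaling, 1.81 as a mean over cells, 1.94 with the hashtag filter, 1.51 as the geometric mean and 1.81 in gated cells. With a fold limit of 2 in place of 1.5, the members past it were 3 in place of 5 (genotype, CDA-HFD), 0 in place of 1 (genotype, ND), 3 in place of 5 (diet, Egr2fl/fl) and 2 in place of 4 (diet, Lyz2Cre/+.Egr2fl/fl), where 0.562%, 1.06%, 12.3% and 12.7% of all tested genes lay past that limit on either side. In the order ND-fed Egr2fl/fl, ND-fed Lyz2Cre/+.Egr2fl/fl, CDA-HFD-fed Egr2fl/fl and CDA-HFD-fed Lyz2Cre/+.Egr2fl/fl, the strong share was 15.1%, 15.7%, 46.3% and 26.0% at a threshold of 5 counts per 10000, 1.10%, 1.19%, 24.9% and 5.75% at 20, and 3.37%, 3.65%, 36.3% and 13.6% in cells as deposited. The median share of cells with a count over the 10 members was 64.2%, 61.9%, 58.4% and 51.8% as deposited, against 31.7%, 31.3%, 39.2% and 28.5% thinned. The mean r of all stress-inducible pairs, in the same order of mice, was 0.0386, 0.0359, 0.229 and 0.101 thinned and 0.0950, 0.0881, 0.302 and 0.127 as deposited. In the CDA-HFD-fed Egr2fl/fl mouse the stress-inducible CPM with Louvain clusters in place of gates was 977 in monocyte-derived macrophages, 1663 in Ly6Chi monocytes, 3056 in Ly6Clo monocytes, 1916 in Cd209a+ dendritic cells, 1881 in Ccr7+ dendritic cells and 353 in neutrophils. As a mean over cells it was 1025 in monocyte-derived macrophages, 1651 in Ly6Chi monocytes, 2473 in Ly6Clo monocytes and 162 in neutrophils. By that measure Cd209a+ dendritic cells had 1974 and Ccr7+ dendritic cells 1979, so the latter no longer stood below the former. With TMM scaling the members past the limit of 1.5 were 4 (diet, Egr2fl/fl; Hspa8 at 0.738) and 3 (diet, Lyz2Cre/+.Egr2fl/fl; Hsph1 at 0.677). The levels by gate were 0.525 to 4.17 times the reported ones with Louvain clusters and 0.409 to 1.34 times as a mean over cells. Of the other values, 340 moved by less than their counting interval and 238 by more, and 0 of the summary values above turned direction. No paired analysis was possible because each group held 1 mouse. The depth of neutrophils limits what a share at 0 can show in them, and the cause of each move was not tested.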
